A study of Mus musculus with 4 samples.

Results

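The genes described here encode the enzymes that remove or add acetyl and methyl groups on histones. They comprise 45 protein-coding genes of the mouse, chosen by name: 11 histone deacetylases, 6 sirtuins, 12 lysine demethylases, 14 lysine methyltransferases and the 2 acetyltransferases Ep300 and Crebbp. The annotation used holds 55450 genes, of which 21938 are protein-coding and serve as the background below. The measurement was chromatin immunoprecipitation followed by sequencing (ChIP-seq) of MIZ-1 in B220+ splenocytes, B220 being the CD45 isoform by which B lineage cells are commonly sorted. The control genotype was wild type (MIZ-1WT). The other (MIZ-1DPOZ) carried the MB1-Cre allele and the Miz-1 floxPOZ allele, so that Cre expressed from the B cell gene Cd79a (Mb1) removed the POZ domain in B cells and a shortened MIZ-1 protein was made. All lines were on a C57BL/6 background and the animals were young adults. There were 4 libraries, 1 ChIP library with the Miz-1 H-190 antibody and 1 input library for each of the 2 genotypes, so every difference below is a difference between 2 libraries and has no replicate check and no test. The labels do not give the number of animals behind a library, and peak lists hold no expression values, so neither the B220+ label nor the loss of the POZ domain was checked here.

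MIZ-1, the product of Zbtb17, is a zinc finger transcription factor of the BTB/POZ family. It activates genes at whose promoters it binds, and together with MYC it is known to repress some of them, such as cell cycle inhibitor genes. Its POZ domain lets MIZ-1 molecules associate with each other and with partner proteins, while the zinc fingers contact DNA. The enzymes described here act on chromatin after such factors have recruited their complexes. Deacetylases take acetyl groups off histone tails and are usually part of corepressor complexes, acetyltransferases put them on, and methyltransferases and demethylases set marks that accompany either active or silent genes depending on the lysine.

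Peaks were called separately for each genotype, giving 34209 peaks for MIZ-1WT (the WT list) and 78357 for MIZ-1DPOZ (the DPOZ list). A peak is a stretch in which more ChIP fragments piled up than the local background predicts, and its summit pileup is the number of fragments over its highest point. The median summit pileup was 9 fragments in the WT list and 12 in the DPOZ list, and the smallest were 5 and 6. From the most frequent background value and the fragment length, the MIZ-1DPOZ ChIP library was estimated to be 1.34 times as deep. A promoter peak was any peak that overlapped the stretch from 2000 bp before to 1000 bp after a transcript start of the gene, and a body peak overlapped the rest of the gene. The 45 genes held 75 peaks of the WT list (34 at promoters and 41 in gene bodies) and 146 of the DPOZ list (47 and 99).

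The DNA under these promoter peaks was rich in G and C. The sequences below represent 3 kinds of gene. Hdac4, Kmt2e, Sirt7 and Setd1b (WT summit) had a promoter peak in both lists and ranked highest by the smaller of their −log10 q values in the WT and DPOZ lists. Dot1l and Ezh2 had one in the DPOZ list only and Ehmt1 and Sirt2 in the WT list only, ranked by the −log10 q of that peak. The q is the authors' p-value per peak adjusted for the number of positions tested, so a larger −log10 q is a stronger peak. Each sequence runs 5′ to 3′ on the strand of its gene in the GRCm38 assembly (mm10), up to 60 bases to each side of the summit, and is cut where an annotated untranslated region begins. Hdac2 and Kdm3a also ranked high enough, but their summits lie inside such a region. The 21 bases centred on the summit are in capitals.
Hdac4, chr1:92179765-92179885, minus strand: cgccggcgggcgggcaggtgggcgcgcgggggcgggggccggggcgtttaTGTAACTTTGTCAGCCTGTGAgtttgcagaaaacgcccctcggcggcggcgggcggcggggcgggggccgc
Kmt2e, chr5:23433906-23434026, plus strand: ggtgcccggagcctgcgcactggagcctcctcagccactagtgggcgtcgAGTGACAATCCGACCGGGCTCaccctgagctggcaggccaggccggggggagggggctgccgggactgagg
Sirt7, chr11:120624796-120624916, minus strand: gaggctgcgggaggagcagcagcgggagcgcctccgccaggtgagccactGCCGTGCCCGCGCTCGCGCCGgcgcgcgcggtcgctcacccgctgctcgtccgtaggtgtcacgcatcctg
Setd1b, chr5:123142009-123142129, plus strand: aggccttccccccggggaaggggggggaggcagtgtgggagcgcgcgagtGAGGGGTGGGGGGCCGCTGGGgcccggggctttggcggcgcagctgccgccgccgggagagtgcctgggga
Dot1l, chr10:80755524-80755644, plus strand: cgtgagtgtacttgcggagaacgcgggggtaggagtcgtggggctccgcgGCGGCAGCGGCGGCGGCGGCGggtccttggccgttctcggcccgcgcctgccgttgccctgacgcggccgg
Ezh2, chr6:47595274-47595394, minus strand: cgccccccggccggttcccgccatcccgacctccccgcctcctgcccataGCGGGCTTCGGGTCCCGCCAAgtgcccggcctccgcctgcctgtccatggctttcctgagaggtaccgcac
Ehmt1, chr2:24919615-24919695, minus strand: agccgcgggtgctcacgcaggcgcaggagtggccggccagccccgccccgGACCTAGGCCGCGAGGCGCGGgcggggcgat
Sirt2, chr7:28766868-28766958, plus strand: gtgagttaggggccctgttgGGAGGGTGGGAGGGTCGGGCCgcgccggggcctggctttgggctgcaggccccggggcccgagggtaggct
These stretches were 72.7% to 81.5% G and C. The stretch of Hdac4, 516 bp downstream of a start, held 19 CpG dinucleotides and 4 copies of GGGCGG, the core of the GC box bound by SP1-like factors (non-overlapping matches on either strand). Ehmt1 held 2 copies of it, 1 on each strand, and the other 6 stretches held none.

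A promoter peak was present for 26 of the 45 genes in the WT list (57.8%, 95% Wilson interval 43.3% to 71.0%) and for 32 in the DPOZ list (71.1%, 56.6% to 82.3%). Over all protein-coding genes the shares were 30.9% and 48.7%. In both lists, 22 genes had a promoter peak (48.9%, against 26.7% of all protein-coding genes). Another 4 had one in the WT list only (8.89%, against 4.22%), 10 in the DPOZ list only (22.2%, against 22%) and 9 in neither (20%, against 47.1%). The DPOZ list is the longer one, and shortening it to its 34209 strongest peaks, with ties at the cut taken in list order, turned the order of the lists. Then 26 genes had a WT peak and 22 a DPOZ peak (25.4% of all protein-coding genes), with 14 in both (16.1%), 12 in the WT list only (14.8%) and 8 in the DPOZ list only (9.26%). The enzyme genes also had more GC at their starts than other genes, with a median of 60.8% against 54.7% over 500 bp to each side of the start. Among the 7349 protein-coding genes whose promoter GC lay between the quartiles of the 45 (56.8% to 67.4%), 49.4% had a promoter peak in the WT list, 75.2% in the DPOZ list and 42.9% in both. A further split gave 6.52% in the WT list only, 32.2% in the DPOZ list only and 18.3% in neither. The Wilson intervals of the enzyme genes for the WT list, the DPOZ list and both (35.0% to 63.0%) include these values, and they cover counting error only. The 45 genes themselves ran from 38.1% (Hdac9) to 77.2% (Kmt2c) in promoter GC, so the 2 sets are not matched gene by gene.

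**Figure D1:**
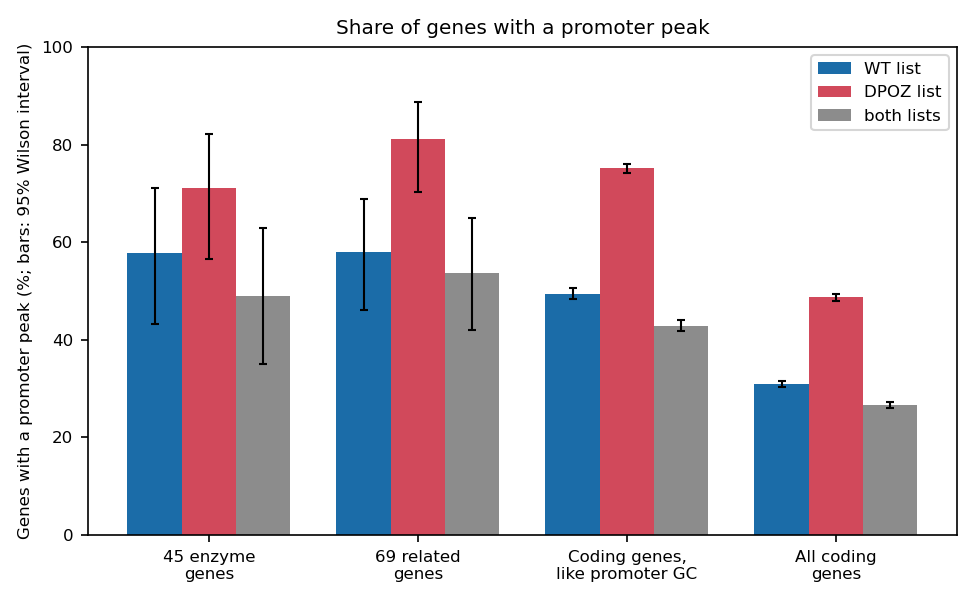
Share of genes (percent, vertical axis from 0) with a promoter peak in the WT list, the DPOZ list and both, for the 45 enzyme genes, 69 related genes, protein-coding genes of like promoter GC and all protein-coding genes, with 95% Wilson intervals. The 45 genes stand at 57.8%, 71.1% and 48.9%, above all protein-coding genes (30.9%, 48.7% and 26.7%) and near the genes of like GC (49.4%, 75.2% and 42.9%).

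The related genes were 69 further chromatin enzymes and subunits of their complexes. Of these, 40 (58.0%) had a promoter peak in the WT list, 56 (81.2%) in the DPOZ list and 37 in both. Subunits of the complexes, such as those that hold deacetylases or methyltransferases, had one in 13 of 21 genes in the WT list and 19 of 21 in the DPOZ list. The other acetyltransferases had one in 8 and 9 of 11, the other methyltransferases in 12 and 20 of 24, and the other demethylases and sirtuins in 7 and 8 of 13. The largest WT pileup of these genes was at Kdm8, which encodes a JmjC protein, with 21 fragments in the WT list and 11 in the DPOZ list.

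Of the classical deacetylases, 5 had a promoter peak in both lists. Hdac2, which encodes a catalytic subunit of the NuRD, SIN3 and CoREST corepressors, had the strongest pair of peaks among the 45 genes, with a summit pileup of 13 fragments and a −log10 q of 7.02 in the WT list and 16 fragments and 9.03 in the DPOZ list. These lay above 89.4% and 82.3% of the genes with a promoter peak in the respective list. Hdac1, the close paralog in the same complexes, had 10 fragments in the WT list and 8 in the DPOZ list. The DPOZ peak of Hdac1 was weak, with a −log10 q of 2.61 that only 2.54% of genes fell below. Among class IIa, the signal-responsive deacetylases that shuttle between nucleus and cytoplasm, Hdac4 had 11 and 14 fragments and Hdac7 had 11 and 15. Hdac11, the class IV enzyme, had 8 and 11.

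Hdac3, the catalytic subunit of the NCoR and SMRT corepressors, and Hdac5 of class IIa had a promoter peak in the DPOZ list only. Hdac5 reached 15 fragments with a −log10 q of 8.91, and Hdac3 reached 14 with 6.21. The Hdac3 peak had its summit at −883 bp from the start and also lay in the promoter window of Rell2. It lay nearer to a start of another gene than to that of Hdac3, so it cannot be assigned to Hdac3 with any certainty. Hdac8 and Hdac9 and the class IIb genes Hdac6 and Hdac10 had no promoter peak in either list, which left class IIb and IV with 1 gene of 3.

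With all peaks, the sirtuins, NAD-dependent deacylases, were the class in which the WT list held more genes (4 of 6) than the DPOZ list (2 of 6). This did not hold with a −log10 q of at least 5 or with windows of 500 bp to each side of a start. With lists of equal length, other classes also had more genes in the WT list. Sirt7, a nuclear and nucleolar sirtuin, had 13 fragments in each list, with a −log10 q of 7.51 in the WT list and 5.05 in the DPOZ list. The DPOZ peak of Sirt7 lay nearer to a start of another gene. Sirt1, the nuclear sirtuin best known for deacetylating transcription factors, had 8 and 13 fragments. Sirt2, a mainly cytoplasmic tubulin and histone deacetylase, had 10 fragments and a −log10 q of 5.05 in the WT list only, in a window shared with the neighbouring gene Nfkbib. Sirt5, a mitochondrial desuccinylase, also had a promoter peak in the WT list only, but this peak lay at −1065 bp from a start. Its sequence was 100% repeat-masked, and the 50-base stretches around its summit occurred a median of 12 times in the genome. Sirt3, a mitochondrial enzyme, and Sirt6, a chromatin-bound one, had none.

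Both acetyltransferases, the coactivators Ep300 and Crebbp, had promoter peaks in both lists. Ep300 had 8 fragments in the WT list and 14 in the DPOZ list, and Crebbp had 10 and 14. In each gene and each list there were 2 separate promoter peaks.

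Both flavin-dependent demethylases had peaks in both lists, at 8 and 13 fragments for Kdm1a (LSD1) and 9 and 13 for Kdm1b (LSD2). The Kdm1b peaks also lay in the promoter window of Tpmt. Of the 10 JmjC demethylases, which act through iron and 2-oxoglutarate, 5 had peaks in both lists, 3 in the DPOZ list only and 2 in neither. Kdm3b, an H3K9 demethylase, had 13 and 10 fragments, and its WT peak lay above 91.7% of the genes with one. Its paralog Kdm3a had none in the WT list and 16 fragments with a −log10 q of 9.96 in the DPOZ list, above 85.0% of genes. Kdm5b, an H3K4 demethylase, had 13 and 11 fragments, whereas its paralog Kdm5a had a DPOZ peak only (13 fragments, −log10 q 6.90). The CXXC-domain demethylases Kdm2a and Kdm2b had 9 and 14 and 10 and 15 fragments. For Kdm2b the strongest peaks of the 2 lists lay 87384 bp apart, at different starts of the gene. Within the Kdm4 genes, Kdm4c had weak peaks in both lists (8 and 10 fragments), Kdm4b had 12 in the DPOZ list only, and Kdm4a had none. Kdm6b, an H3K27 demethylase, had none.

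The KMT2 and SETD1 genes encode the H3K4 methyltransferases of the COMPASS family and the related protein KMT2E. Of these 7 genes, 5 had promoter peaks in both lists. Setd1b had 13 fragments in the WT list and 18 in the DPOZ list, and its paralog Setd1a had 8 and 13. Over the local background these were 5.07-fold and 4.43-fold at Setd1b and 4.24-fold and 5.96-fold at Setd1a. Kmt2e had 10 and 11 at nearly the same position, with summits 14 bp apart. Both Kmt2e peaks lay nearer to a start of another gene than to one of Kmt2e. Kmt2c and Kmt2d, the enhancer H3K4 monomethyltransferases, each had 9 fragments in the WT list and 11 and 16 in the DPOZ list. The WT peak of Kmt2c lay nearer to a start of another gene. Kmt2a, the MLL1 gene, had a promoter peak in the DPOZ list only (17 fragments, −log10 q 7.25), and Kmt2b, its closest paralog, had none in either list although its start was richer in GC than that of 97.9% of protein-coding genes.

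Among the other 7 methyltransferases, only Suv39h2 had peaks in both lists, and 6 had one in a single list. Ehmt1 (GLP) had the largest WT promoter pileup of the 45 genes, 16 fragments at 8.80-fold over background with a −log10 q of 11.2, at −21 bp from a start, and had none in the DPOZ list. Ehmt2 (G9a), with which GLP forms the H3K9 methyltransferase, had 18 fragments with a −log10 q of 5.92 in the DPOZ list and none in the WT list, although a WT peak lay at a further start in its body that only the full annotation lists. Ezh2, the main catalytic subunit of the H3K27 methyltransferase PRC2, had 16 fragments with a −log10 q of 9.88 in the DPOZ list only, and Ezh1, the alternative catalytic subunit, had 6 fragments with a −log10 q of 1.76 in the WT list only. The Ezh1 peak was among the weakest of that list, above 0.871% of genes, and was lost with a −log10 q of at least 2. The WT peak of Suv39h2 was equally weak, with 6 fragments and a −log10 q of 1.76. With that threshold Suv39h2 had a promoter peak in the DPOZ list only. Dot1l, the H3K79 methyltransferase, had 16 fragments with a −log10 q of 9.96, and Setd2, the H3K36 trimethylating enzyme, had 12 with 5.96, both in the DPOZ list only.

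**Figure D2:**
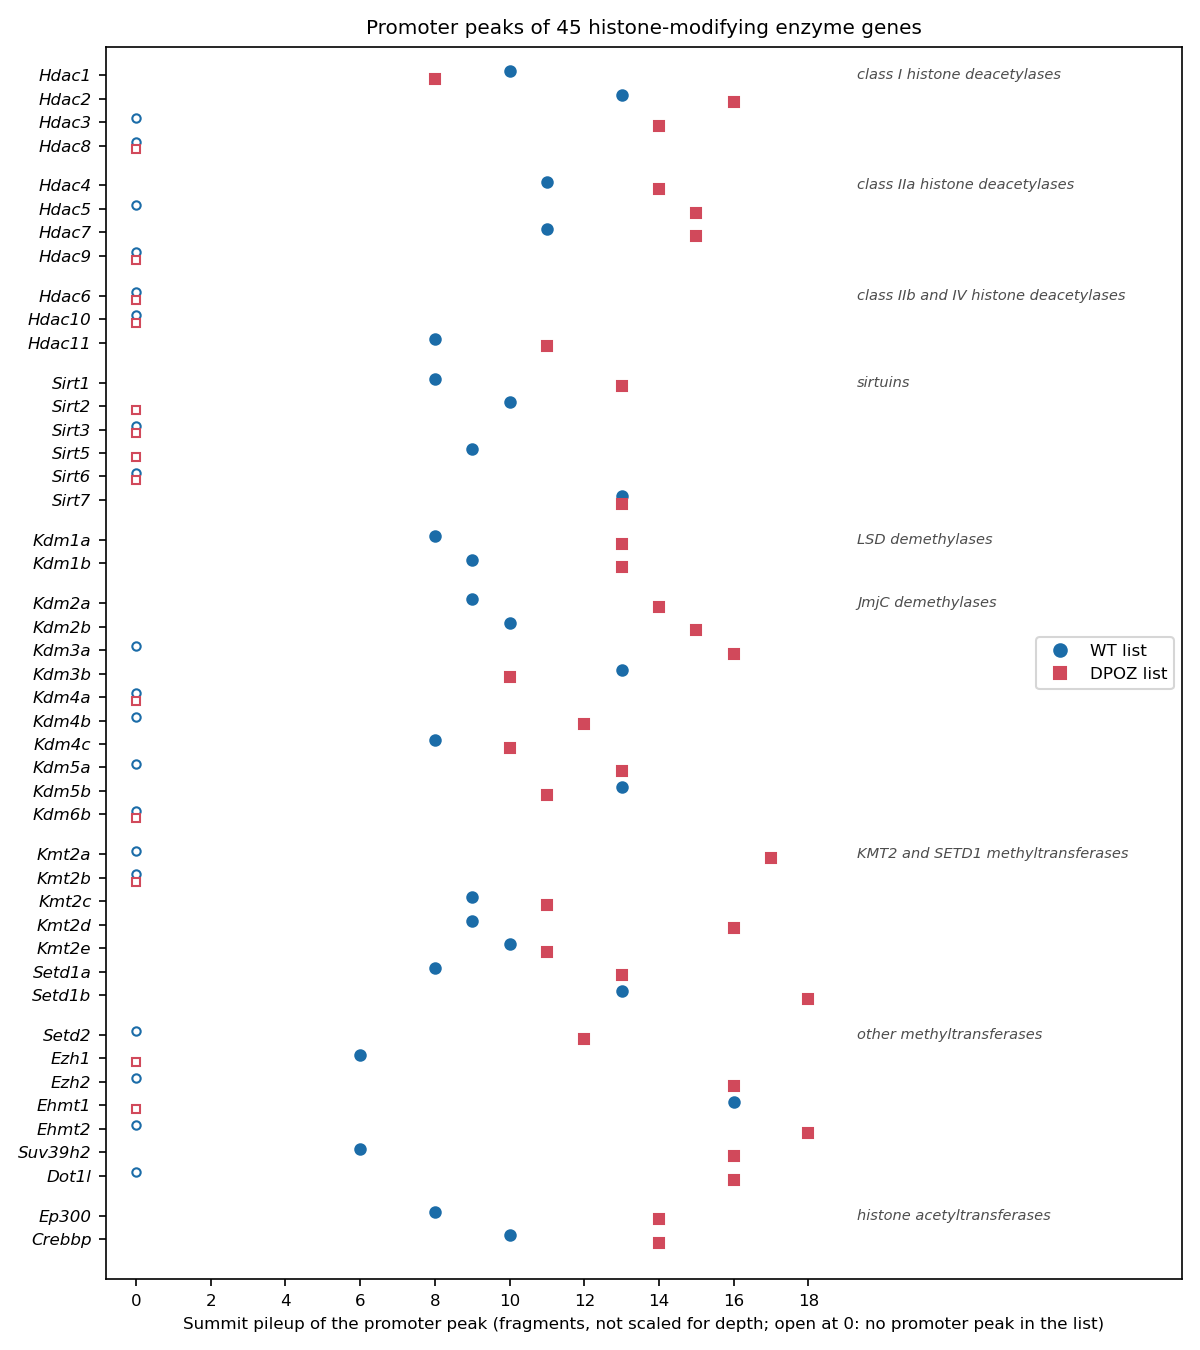
Summit pileup (fragments, not scaled for depth) of the promoter peak with the largest −log10 q of each of the 45 genes, by enzyme class, in the WT list (circles) and the DPOZ list (squares), with open symbols at 0 where a list held no promoter peak. Filled values run from 6 to 16 fragments in the WT list and from 8 to 18 in the DPOZ list, and the open circles of Kdm3a, Dot1l and Ezh2 stand against 16 fragments in the other list.

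The pileups of the enzyme genes were near the middle of their lists. Their median was 9.5 fragments in the WT list and 14 in the DPOZ list, against 9 and 13 for all protein-coding genes with a promoter peak, whose largest values were 296 and 346. The DPOZ peaks of the 10 genes found in that list only had a median of 15.5 fragments, and those of the 22 genes in both lists had one of 13. Over all protein-coding genes the medians were 12 for the DPOZ list only and 13 for both lists.

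At the 22 promoters with peaks in both lists, the pileup ratio between the libraries was near 1 in the median once scaled for depth. The MIZ-1DPOZ to MIZ-1WT ratio had a median of 0.04 on the log2 scale, against 0.11 over the 5847 protein-coding genes with peaks in both lists. Scaled by the ratio of the backgrounds, 1.57, the median became −0.18, so its direction depends on the scaling. With the depth ratio it was below 1 at 9 genes and above 1 at 13. The highest ratio was 1.99 at Suv39h2 (exact 95% interval 0.74 to 6.21), an H3K9 trimethylating enzyme with 6 fragments in the WT list and 16 in the DPOZ list. Next came Kmt2d at 1.33 (0.55 to 3.40) and Ep300 at 1.31 (0.51 to 3.59). The strongest promoter peaks of the lists overlapped at 15 of the 22 genes (68.2%, against 72.7%). For Suv39h2 and Kmt2d the strongest peaks of the 2 lists did not overlap, so the ratio sets neighbouring positions against each other. They did not overlap at some other genes either. At Kdm2b (ratio 1.12) they lay 87384 bp apart and at Kdm2a (1.16) 1454 bp apart, at different starts, so these ratios do not compare the same promoter. The lowest were Kdm3b at 0.57 (0.23 to 1.42), Hdac1 at 0.60 (0.20 to 1.68) and Kdm5b at 0.63 (0.26 to 1.53). Every one of the 22 intervals included 1, so no difference in pileup was detectable at this depth at any single gene. The intervals cover counting error in 2 libraries only, and a pileup is known only where a peak was called.

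**Figure D3:**
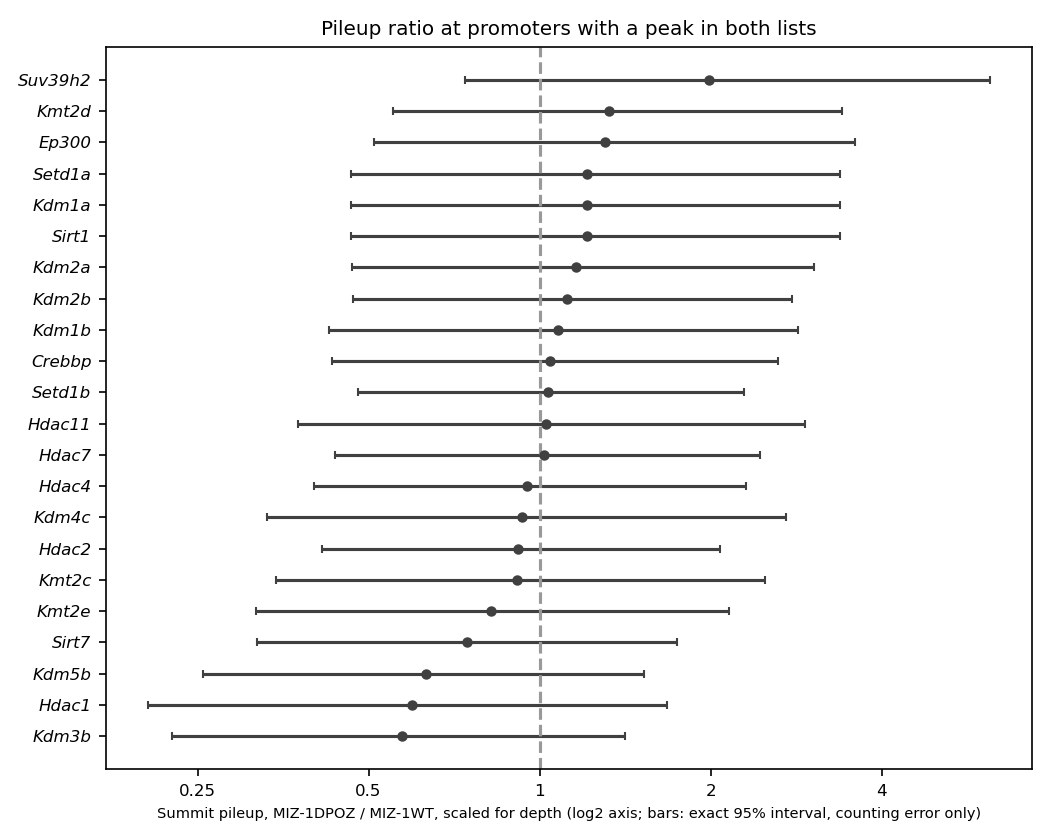
Ratio of summit pileups, MIZ-1DPOZ over MIZ-1WT, scaled by the depth ratio of 1.34, for the 22 genes with a promoter peak in both lists (log2 axis, points with exact 95% intervals for counting error). The points run from 0.57 at Kdm3b to 1.99 at Suv39h2, and each interval crosses the dashed line at 1.

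The genes with a promoter peak in a single list were in that group because the peak was called in one library and not in the other, so their pileups could only be high where they were called, and no pileup is known for the other library. For the 10 DPOZ-only genes the nearest WT peak of any kind lay 9726 to 56196 bp from the promoter peak, closest at Kdm4b and farthest at Ezh2. For the 4 WT-only genes the nearest DPOZ peak lay 4869 bp away at Sirt2, 15102 bp at Ehmt1, 17501 bp at Sirt5 and 19962 bp at Ezh1. With 1 ChIP library of each, a difference between genotypes and one between libraries cannot be told apart.

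A stricter threshold on the peaks moved many genes. With only peaks of −log10 q of at least 5, 7 of the 45 genes (15.6%) had a promoter peak in the WT list, 27 (60%) in the DPOZ list, 4 (8.89%) in both and 23 in the DPOZ list only, against 9.78%, 33.3%, 7.11% and 26.2% of all protein-coding genes. The 4 in both were Hdac2, Hdac4, Sirt7 and Kmt2e. Of the 22 genes in both lists, 13 moved to the DPOZ list only. All 10 DPOZ-only genes kept their place. Their values fixed this, as each peak had a −log10 q of at least 5.92 and a threshold cannot add a WT peak. The threshold was also not alike for the 2 lists. The strongest promoter peaks of the enzyme genes had a median fold of 5.07 in the WT list and 5.54 in the DPOZ list, but a median −log10 q of 4.14 and 6.51. Of the WT-only genes, Ehmt1 and Sirt2 kept their place. Lists of equal length moved genes the other way. There 8 of the 22 genes in both lists (Hdac1, Hdac11, Sirt7, Kdm3b, Kdm4c, Kdm5b, Kmt2c and Kmt2e) moved to the WT list only, and the DPOZ-only genes Setd2 and Ehmt2 had no promoter peak left. The cut fell among tied peaks. Setd2 was lost while Kdm4b, with the same −log10 q of 5.96, was kept, so the loss of Setd2 came from the order of ties. Ehmt2 was also lost with a fold of at least 5, and Hdac3 and Kdm5a with windows of 500 bp to each side of a start. Hdac3 was lost too when a peak counted only for the gene with the nearest start.

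Summits lay close to the starts and mostly downstream of them. The strongest promoter peak had its summit within 500 bp of a start for 23 of 26 genes in the WT list (88.5%, against 81.8% of all protein-coding genes with one) and 27 of 32 in the DPOZ list (84.4%, against 79.2%). At the 22 genes in both lists the median position was 139.5 bp downstream of the nearest start in the WT list and 316.5 bp in the DPOZ list. By these distances the DPOZ summit was the further downstream in 15 of the 22 (68.2%), against 52.5% of the 5847 protein-coding genes, whose medians were 92 and 128 bp. Each summit was measured to its own nearest start, so the 2 distances of a gene can refer to different starts. This was so at Kdm2b (210 and 1004 bp), which counts among the 15 although its DPOZ summit lay 87384 bp upstream of its WT summit. Examples were Setd1b, at −124 bp in the WT list and 241 bp in the DPOZ list, Hdac2 at −5 and 261 bp, and Kmt2c at −326 and 463 bp. These positions depend on taking the strongest peak. Hdac2 also had a WT peak at 534 bp and a DPOZ peak at −364 bp, and Kmt2c also had a DPOZ peak at −775 bp. The order was opposite at the remaining genes, for example at Sirt1 (675 and 198 bp), Hdac4 (516 and 436 bp) and Crebbp (198 and 65 bp). DPOZ peaks were also wider, with a median of 330 bp against 211 bp at these genes and 335 bp against 209 bp over the protein-coding genes, and the part of this width in the positions was not tested. At 19 of the 22 genes (86.4%, against 88.5%) at least 1 pair of promoter peaks of the 2 lists overlapped. Kdm4c, Kmt2c and Suv39h2 had none that did.

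**Figure D4:**
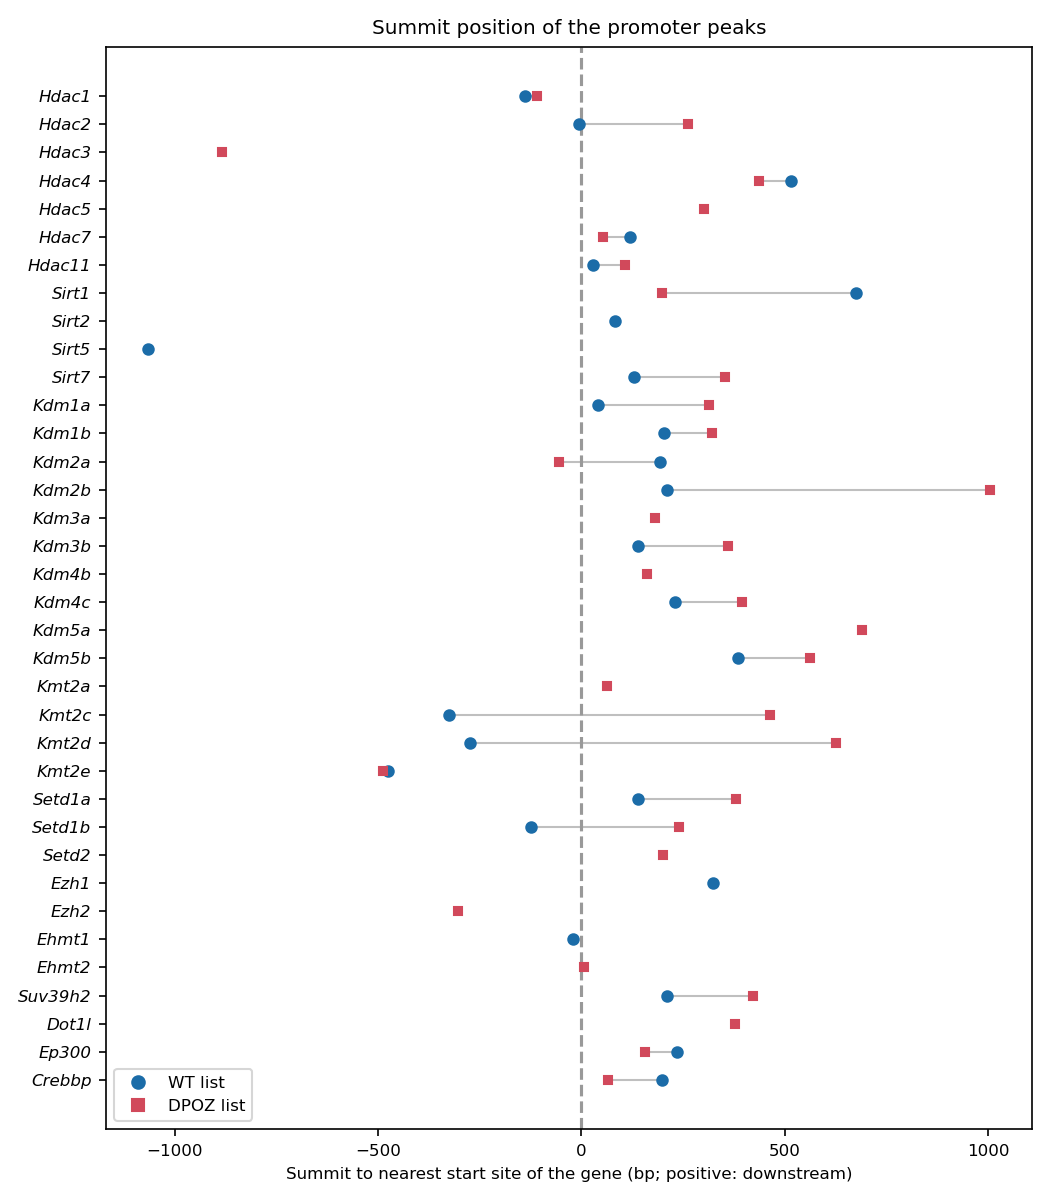
Position of the summit of the strongest promoter peak relative to the nearest start of its gene (bp, positive downstream), in the WT list (circles) and the DPOZ list (squares), for the 36 genes with a promoter peak. Grey lines join the 2 lists, and the square lies to the right of the circle in 15 of the 22 joined pairs.

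The summit sequences shared a high GC content, and no search for shared sequences was made beyond the short ones named below. The windows of 100 bp to each side of the summit were 74.1% G and C in the median in the WT list and 73.9% in the DPOZ list, against 73.1% and 71.1% for all protein-coding genes with a promoter peak. Apart from Sirt5, no summit window of these peaks was mostly repeat. The GC box core GGGCGG, on either strand, was found in 13 of 26 windows of the WT list (50%, against 64.4%) and 17 of 32 of the DPOZ list (53.1%, against 56.1%). The E-box CACGTG, the preferred site of MYC with MAX, was in 0 of 26 windows (4.78% of all protein-coding genes with a peak) and in 1 of 32 (3.13%, against 3.66%), that of Kdm2b. The CCAAT box, bound by NF-Y and counted on either strand, was in 3 (11.5%, against 9.04%) and 2 (6.25%, against 9.69%).

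Gene bodies held more peaks than promoters, and these genes are long, with a median length of 43.1 kb against 17.4 kb for all protein-coding genes. The density was 1.16 body peaks per 100 kb in the WT list and 2.79 in the DPOZ list, against 1.00 and 2.58 over all protein-coding genes. Of the 41 WT body peaks, 30 had their summit in an intron, 8 in a coding exon and 3 in an untranslated region, and of the 99 DPOZ body peaks the numbers were 68, 27 and 4. Body summits lay in mostly repeat-masked sequence in 46.3% and 32.3%, and 13 peaks in each list overlapped a peak of the other. No such shares are given here for body peaks of all protein-coding genes, so these values do not show a trait particular to the enzyme genes.

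Setd1b had many body peaks for its length. It held 6 in the WT list and 5 in the DPOZ list over 24.7 kb, all in coding exons or an untranslated region and none in mostly repeat-masked sequence, with 9 to 13 and 11 to 15 fragments. Kdm2b held 8 in the DPOZ list and none in the WT list, the highest with 16 fragments in a coding exon (chr5:122881513-122881746). Hdac4 held 4 WT peaks, all intronic, and 5 DPOZ peaks, of which 4 were in coding exons and 1 in an untranslated region, and none of them overlapped between the lists. Kmt2d, Hdac7 and Sirt2 each held 5 in the DPOZ list, and 2, 1 and 1 in the WT list.

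**Figure D5:**
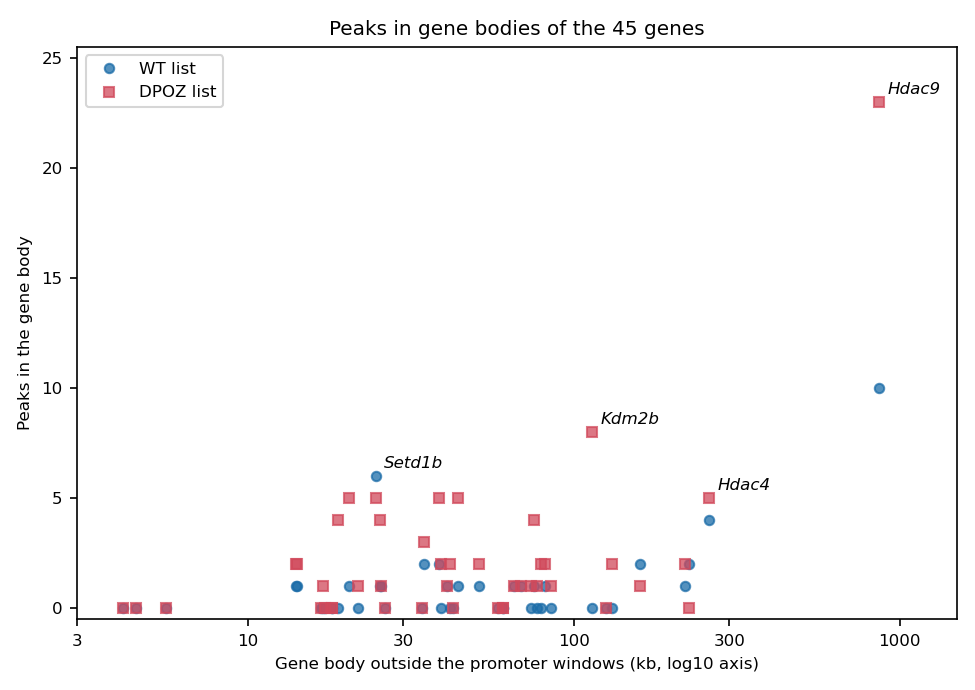
Number of peaks in the gene body outside the promoter windows (vertical axis) against the length of that part of the gene (kb, log10 axis) for each of the 45 genes, in the WT list (circles) and the DPOZ list (squares). Hdac9, the longest body at 863 kb, held 10 and 23 peaks, and Setd1b held 6 and 5 in 24.7 kb.

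Hdac9, a class IIa deacetylase and the longest of the 45 genes, held 10 WT and 23 DPOZ body peaks and no promoter peak by the starts of the GENCODE basic annotation. Its highest peak (chr12:34066980-34067846 in the DPOZ list) had 66 fragments, the most of any peak in these genes, and 17 fragments in the overlapping WT peak. It lay in an intron in 100% repeat-masked sequence, and the 50-base stretches around its summit occurred a median of 920 times in the genome. A different kind of peak lay at the other end of the gene. There, 2 pairs of overlapping peaks were 74.1% to 83.6% G and C, and the 50-base stretches around each summit had a median of 1 copy in the genome. They had 7 and 9 fragments in the WT list (chr12:34906731-34906917 and chr12:34907109-34907405) and 11 and 18 in the DPOZ list (chr12:34906748-34906922 and chr12:34907029-34907525). Their summits lay at most 339 bp from a start of Hdac9 that the full GENCODE annotation gives to a retained-intron transcript and the basic annotation leaves out, and at most 303 bp from a RefSeq start of Hdac9.

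The choice of starts therefore decided the place of 7 genes. With every start of the full annotation, a choice made after seeing these peaks, Hdac9 and Kdm6b moved from neither list to both, Kdm4a and Kmt2b from neither to the DPOZ list only, Hdac5 and Ehmt2 from the DPOZ list only to both, and Sirt2 from the WT list only to both. The counts became 30 genes in the WT list, 37 in the DPOZ list and 27 in both, against 33.2%, 52.4% and 29.3% of all protein-coding genes. Hdac8, Hdac6, Hdac10, Sirt3 and Sirt6 still had no promoter peak. By the basic starts, the nearest peak to a start of these 5 genes lay 11981 to 55376 bp away in the WT list and 8324 to 23250 bp away in the DPOZ list. Their promoters were not poor in GC, with 56.3% to 59.5% apart from Hdac8 at 46.8%. Of the other 4 genes without a basic promoter peak, Kdm6b had its nearest peak at 7843 bp in the WT list and 2132 bp in the DPOZ list, Kmt2b at 20028 and 5825 bp, Kdm4a at 29659 and 8001 bp, and Hdac9 at 46324 and 26753 bp.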

How the data were processed

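B220+ splenocytes of 2 genotypes were measured, with 1 ChIP and 1 input library each. Per the study's methods and the labels, the authors trimmed paired-end reads, aligned them to mm10 and called narrow peaks with MACS2 against the input. The labels name Bowtie2 2.2.6 and MACS2 2.1.0, whereas the methods name bwa and a later MACS2. The cutoff and the treatment of duplicate reads are not given in the sources used here. The deposited files give, per peak, a fold enrichment at the summit (a ratio to the local background) and −log10 values of its Poisson p and adjusted q, as the authors' caller wrote them. The reads and input signal were not analysed here, and total read numbers are unknown.

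Whole-number summit pileups were solved from fold and −log10 p under MACS2's formulas for 99.97% and 99.99% of the peaks (9 and 11 unsolved, none at these genes). The depth ratio came from the most frequent background divided by the smallest peak width (148 and 173 bp). Starts were those of GENCODE vM21 basic for GRCm38, and an overlap of 1 bp sufficed. Sequences and repeat masking came from the RefSeq GRCm38 genome. Where a gene had several promoter peaks in a list, the one with the largest −log10 q stood for it. Pileup ratios have exact binomial intervals at 95%. Both the solving and the overlap search were tested on simulated data. Python 3.11.15, numpy 2.4.6, pandas 2.3.3, scipy 1.17.1 and matplotlib 3.10.9 were used.

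The genes and the lists of related genes were chosen with earlier results of these data known, and nothing is supported by that choice. Values were given for genes in the WT list only or in neither, the 12 genes in both lists with the largest smaller −log10 q, the 8 in the DPOZ list only with the largest, the 3 highest and 3 lowest ratios and the 5 with most body peaks, with ties. The other genes named were added after their values were seen. With 1 ChIP library per genotype no test was run. Alternatives were stricter peak thresholds, lists of equal length, another window, other rules for starts and overlap, and the removal of repeats.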

Additional observations from a re-analysis of the deposited data

How the results depend on the processing

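Of 68 recomputed values, 48 stayed within 1.5 times the value given (for the median log2 ratio, within −0.13 to 0.28) and 20 did not. No paired analysis was possible because only 1 ChIP library stood for a genotype. With −log10 q of at least 5, 7 genes (26 with all peaks) had a WT promoter peak, 4 (22) one in both lists and 23 (10) in the DPOZ list only, body peaks fell to 9 (41) and 49 (99), overlapping pairs to 4 (19), and the median log2 ratio became −0.20. With a fold of at least 5 the counts were 14 for WT, 6 for both, 8 (4) for WT only and 18 for DPOZ only, with 19 and 45 body peaks. With lists of equal length, 26 genes had a WT and 22 (32) a DPOZ promoter peak, 14 in both, 12 in the WT list only and 8 in the DPOZ list only, and the DPOZ list had 33 body peaks. Without summits in repeats, 22 WT body peaks were left. Scaling by the background ratio of 1.57 gave a median log2 ratio of −0.18. Overlap in 9 genes was left when the overlap had to reach 50% of both peaks, and in 9 when summits had to lie within 100 bp. Further choices were added after seeing the data, overlapping peaks only (median log2 ratio 0.02) and the full annotation's starts, and these kept all 6 values within those limits. The causes were not tested. With medians of 9 and 12 fragments per summit, counting error limits every single-gene value.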
